A study of Anopheles gambiae with 5 samples.

Results

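Stretches of the *Anopheles gambiae* genome in which gene after gene carried acetylation of lysine 27 on histone H3 (H3K27ac) and no trimethylation of the same residue (H3K27me3) are described here for the adult female midgut. Annotated genes were placed in order of their start on each chromosome, and a gene was called H3K27ac-only where its span plus 200 bp on each side touched at least 1 H3K27ac peak and no H3K27me3 island. Genes in unbroken series of 5 or more H3K27ac-only genes were the members. They numbered 904 in 149 runs, out of 11868 annotated genes (7.62%) and out of 3805 H3K27ac-only genes, which were 32.1% of all annotated genes. In the same order, 34.8% of genes touched H3K27ac, 28.7% touched H3K27me3, 2.75% touched both and 39.3% touched neither. The remaining 2901 H3K27ac-only genes stood alone or in series of 2 to 4. The members were chosen by the presence of H3K27ac peaks and the absence of H3K27me3 islands in these libraries, so every H3K27ac and H3K27me3 value given for them is a description and none was tested.

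Midguts and salivary glands came from females of the KISUMU strain aged 6 to 8 days, and midguts were pooled for each library. There was 1 H3K27ac and 1 H3K27me3 library, both from midguts and both called against 1 midgut input library, with no replicate of either mark. The gene models came from the transcripts assembled from 1 midgut and 1 salivary gland RNA library, merged into a single set with positions but no abundance. A whole midgut holds enterocytes, endocrine cells, progenitors, visceral muscle, nerve endings and attached tracheae and haemocytes, so marks on neighbouring genes in the same cells and in different cells cannot be told apart. Intervals below are 95% Wilson intervals, which cover counting error over genes or pairs and not the difference between mosquitoes, and neighbouring genes that share a peak are not independent.

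Histone H3 carries either acetyl or methyl groups on lysine 27, never both on the same residue. In *Drosophila* the acetyl group is placed by the acetyltransferase CBP (nejire) at promoters, enhancers and the first part of active genes, whereas Polycomb repressive complex 2 places the trimethyl group over silenced loci, often in broad blocks. Insect genomes are compact in places, and where genes start back to back a single acetylated region can lie over the starts of both.

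Long runs were the tail of a distribution that fell steadily with length. Of the H3K27ac-only genes, 847 stood alone, and there were 453 runs of 2, 212 of 3 and 128 of 4 genes. From the chosen minimum upward there were 73 runs of 5, 38 of 6, 17 of 7, 9 of 8, 5 of 9, 4 of 10, 1 of 11 and 2 of 12 genes. No break set runs of 5 apart from those of 4. The 73 runs just inside the minimum had a median span of 26497 bp, a median share of the span under H3K27ac of 42.8% and 89.6% of promoters marked, against 23590 bp, 34.7% and 87.7% in the 128 runs of 4 just outside it. Over the summed spans H3K27ac covered 33.5% in runs of 5 and 33.8% in runs of 4. Promoter here means 200 bp on each side of a transcription start. Starts were the 5′ ends of the assembled transcripts that matched an annotated gene.

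**Figure D1:**
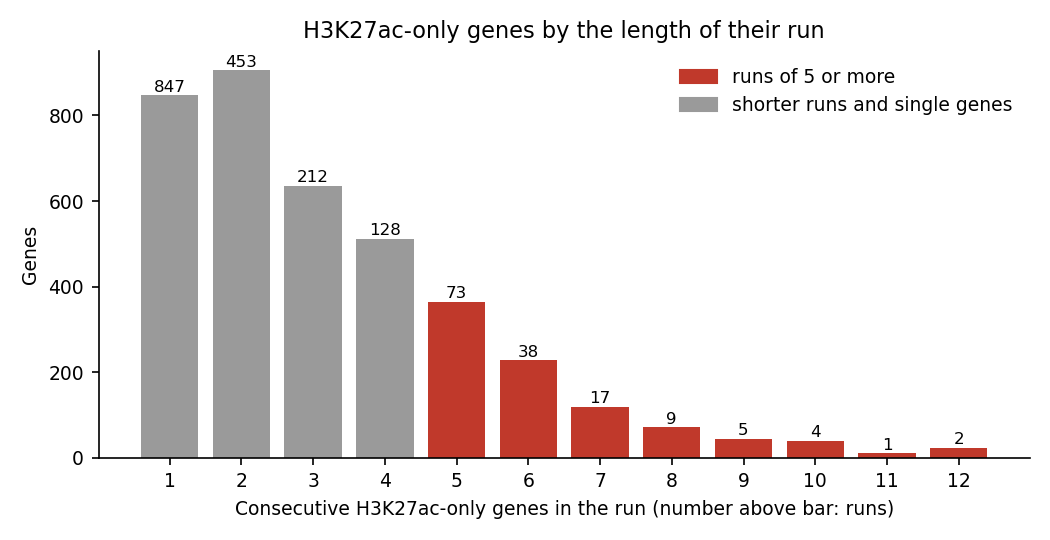
Number of H3K27ac-only genes (vertical axis) by the number of consecutive genes in their run (horizontal axis), with the number of runs above each bar. Runs of 5 or more (red) begin at 73 runs and end with 2 runs of 12 genes, with no gap between them and the shorter runs (grey).

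The span of a run, measured from the first base of its first gene to the last base of its last gene, had a median of 34602 bp and ranged widely, from 5878 to 313555 bp. All 149 spans together made 7164695 bp and held 13.2% of all bases under H3K27ac and 0.498% of those under H3K27me3. Acetylation did not fill the runs. Peaks lay on 32.4% of the summed span, against 29.7% in the 793 runs of 2 to 4 genes and 30.7% of the bodies of the 847 single genes. For one run the median share was 41.7%, and the middle of the distribution lay between 30.4% and 53.4%. The bodies of the genes in runs were covered over 38.6% of their bases, against 32.6% in runs of 2 to 4, while the sequence between genes was covered over 24.5%, against 24.8%.

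Apart from 1 run with a single peak, the runs were series of separate peaks. Runs held a median of 5 peaks (range 1 to 27). Peaks were fewer than genes in 87 runs, equal in 17 and more numerous in 45. The highest peak score in a run had a median of 1348, against 667 in runs of 2 to 4 and 318 for single genes. The number of peaks over which the highest is taken differed too, with medians of 5, 2 and 1. The MACS score grows with the negative log10 of a p-value, and 93 peaks share the value 3100, with 13 above it, so it does not rank the strongest peaks finely. In 9 runs the highest score was 3100.

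Single members were covered over a median of 52.6% of their length, against 44.5% for H3K27ac-only genes outside the runs and 0% over all annotated genes. At least 50% of the body lay under H3K27ac in 470 members (52.0%, interval 48.7 to 55.2%), against 44.7% (42.9 to 46.5%) of the H3K27ac-only genes outside and 15.3% of all genes. The whole gene lay under H3K27ac in 211 members (23.3%), against 14.8% outside and 5.5% of all genes. Members were also shorter, with a median of 2138.5 bp against 2883 bp outside and 2021.5 bp for all genes, and a short gene is covered more readily by a peak of a given length. Within classes of length the difference varied. For genes of 2000 to 5000 bp, members were covered over 42.0% and H3K27ac-only genes outside over 42.8%. For genes of 1000 to 2000 bp the medians were 73.7% and 63.6%, and above 10000 bp they were 28.4% and 21.5%.

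Acetylation sat at the 5′ end in most members. The promoter touched H3K27ac in 813 of 904 members (89.9%, interval 87.8 to 91.7%), against 87.7% (86.5 to 88.9%) of the H3K27ac-only genes outside and 29.7% of all annotated genes. The start itself lay inside a peak in 84.1% of members, against 80.9% outside and 27.5% of all genes. The share fell along the gene, with 51.4% of member midpoints and 36.3% of member ends inside a peak, against 46.3% of midpoints and 24.8% of ends outside the runs. All promoters were marked in 77 of the 149 runs, so the other runs held at least 1 gene reached by a peak elsewhere.

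Many members had no peak of their own. Every peak that touched the gene also touched another annotated gene for 542 members (60.0%, interval 56.7 to 63.1%), against 35.2% (33.4 to 36.9%) of the H3K27ac-only genes outside. By the rule, a peak that reaches a neighbour adds a gene to the series, so this share is tied to the choice of members. The weakest members were 53 genes (5.86%) with no base of the body under H3K27ac, which counted only through the 200 bp beyond their ends, against 4.89% outside. For 48 of these 53 the peak also touched another gene.

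In the transcript set, members had fewer long genes, more short genes and fewer new isoforms than the other H3K27ac-only genes. Genes over 10 kb made 11.4% of members, against 16.3% outside and 14.5% of all genes, and genes under 1 kb made 17.3%, against 11.4% and 23.5%. The median number of exons was 3, against 4 outside and 3 over all genes. A class "j" transcript, the assembler's code for a new isoform that shares splice junctions with the annotated gene, was present for 26.0% of members (23.2 to 29.0%), against 35.2% (33.4 to 36.9%) outside and 22.4% of all genes. Assembly of isoforms depends on the length of a gene and on its RNA level, which was not used here. The plus strand held 51.0% of members.

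Genes in runs lay close together. The gap between neighbours had a median of 613 bp over the 755 pairs inside runs, against 849 bp for the 1261 pairs in runs of 2 to 4 and 2727.5 bp for all 11862 neighbouring pairs. Gaps under 1 kb made 60.5% of the pairs in runs, against 52.7% in runs of 2 to 4 and 32.6% of all pairs. Gaps over 5 kb made 13.9%, against 20.5% and 40.0%. Close spacing bears directly on the rule, since a peak then reaches more genes, and was not tested as a property of the runs.

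The strands of neighbours were mixed. Divergent pairs, whose starts face each other, made 35.1% of the pairs in runs (interval 31.8 to 38.6%), against 38.3% in runs of 2 to 4 and 26.7% of all pairs. Tandem pairs, on one strand, made 33.4% (30.1 to 36.8%), against 37.9% and 46.5%. Convergent pairs, whose ends face each other, made 31.5% (28.3 to 34.9%), against 23.8% and 26.7%. At gaps of 0 to 1000 bp divergent pairs were again the most frequent in runs, with 39.8% divergent, 29.6% tandem and 30.6% convergent, against 27.1%, 37.8% and 35.0% of all pairs at such gaps. In runs of 2 to 4 the shares at such gaps were 45.3%, 29.3% and 25.4%. None of the 149 runs had all its genes on one strand. Of the 308 windows of 5 consecutive genes inside runs, 5 lay on one strand (1.62%, interval 0.695 to 3.74%), against 852 of 11844 windows over all annotated genes (7.19%). Windows overlap and are not independent, so the interval is too narrow.

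A single peak touched both genes, each with its 200 bp, in 359 of the 755 pairs in runs (47.6%, interval 44.0 to 51.1%), against 46.0% in runs of 2 to 4 and 8.78% of all neighbouring pairs. The rest of the pairs were marked by different peaks. Shared peaks were most common at divergent pairs, at 61.1% (55.1 to 66.8%), against 41.3% of tandem and 39.1% of convergent pairs. Both starts lay under 1 peak in 153 of 265 divergent pairs (57.7%), 20.2% of tandem pairs and 8.82% of convergent pairs. In 163 of the 265 divergent pairs (61.5%) the starts were within 1 kb of each other, against 28.9% of all divergent pairs in the genome. Of divergent pairs in runs of 2 to 4, 58.0% shared a peak. Both starts lay under 1 peak in 56.3% and within 1 kb in 55.5%.

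Sharing fell with distance. A peak reached both genes in 89.2% of the 65 overlapping pairs, in 74.6% of pairs 0 to 500 bp apart, in 51.4% at 501 to 1000 bp, in 26.3% at 1001 to 2000 bp and in 8.16% at 2001 to 5000 bp. Only 1 of 105 pairs more than 5 kb apart had a common peak (0.952%). In runs of 2 to 4 the shares, in the same order, were 82.7%, 81.6%, 50.3%, 36.5%, 14.9% and 2.32%. At most gaps these were higher than in runs of 5 or more, so the similar pooled shares hide a difference in spacing. Orientation still separated the close pairs in runs of 5 or more. At 0 to 1000 bp a peak was common to 85.9% of divergent (79.6 to 90.5%), 67.2% of tandem (58.3 to 75.1%) and 45.8% of convergent pairs (37.2 to 54.7%). At 1001 to 5000 bp the shares were 19.0%, 16.0% and 16.4%, with intervals that overlap throughout.

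**Figure D2:**
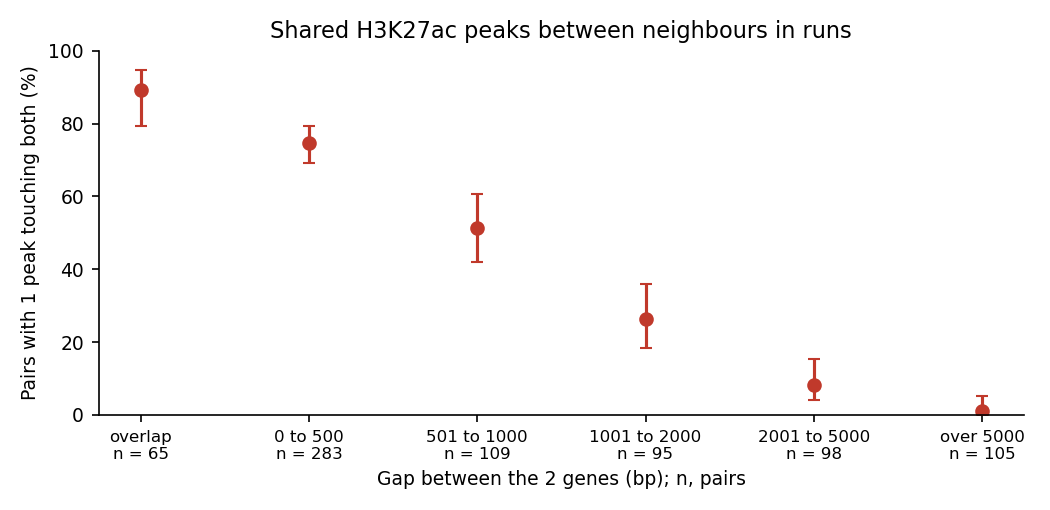
Share of neighbouring gene pairs in runs that were touched by 1 common H3K27ac peak (vertical axis, percent) by the gap between the genes (horizontal axis, bp), with 95% Wilson intervals as bars. The share falls from 89.2% of overlapping pairs to 0.952% of pairs over 5 kb apart.

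The peaks themselves were of ordinary size. Of 6639 H3K27ac peaks, 759 touched members, with a median length of 2067 bp and a median score of 294. The medians were 2042.5 bp and 270 for the 3074 peaks that touched H3K27ac-only genes outside the runs and no member. Of the 759, 480 touched 1 member, 202 touched 2, 63 touched 3 and 14 touched 4 or more, so that 36.8% reached at least 2, against 18.0% of the peaks outside. The peak with the most members was chosen after its values were seen. It covered 5013 bp at 3R:48617484-48622496 with a score of 283 and was the only peak of the run AGAP010071 to AGAP010075. It lay over the whole of AGAP010072, AGAP010073 and AGAP010074, over 1.31% of AGAP010075 and over no base of AGAP010071, which it reached only in the 200 bp beyond the gene.

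The runs with most genes differed in arrangement. There were 7 runs of 10 or more genes, and the 6 described gene by gene leave out 1 of the 4 runs of 10, since ties were settled by the larger share of span under H3K27ac. The one left out, AGAP003532 to AGAP003540 at 2R:39213483-39342791, was the longest of the 7, with 20.2% of 129309 bp under H3K27ac, and the only one of them with H3K27me3 between its genes, where 11 islands lay. Positions are in AgamP4, and the identifiers have no gene name in the sources used here. The first, AGAP009072 to AGAP009083 at 3R:25418794-25459303, had 12 genes on 40510 bp and 9 peaks over 56.1% of the span. All 12 promoters were marked and each gene was covered over 36.0% to 100% of its length. Its highest score, 2726, belonged to a peak of 5228 bp that touched only AGAP009074, whereas a weaker peak of 3072 bp, scoring 312, served AGAP009076, AGAP009077 and AGAP009078. The next gene on its left, AGAP009070, had neither mark and the next on its right, AGAP009084, had H3K27me3.

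The other run of 12, AGAP001451 to AGAP001464 at 2R:5237785-5310066, had 7 peaks over 41.7% of 72282 bp. Coverage was uneven along it. AGAP001451, a gene of 12787 bp, was covered over 3.37%, at its promoter, and AGAP001455, of 12702 bp, over no base, while AGAP001463 and AGAP001464 lay wholly under a peak of 25351 bp that ran on past the last gene. That peak is the longest of the whole H3K27ac list and scored 1299.

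Run AGAP001937 to AGAP001947, at 2R:12670179-12743008, had 11 genes and 12 peaks over 37.9% of 72830 bp, and an H3K27me3 gene at each side (AGAP001936 and AGAP013075). All 11 promoters were marked. AGAP001944, of 27942 bp, was touched by 4 peaks and covered over 35.2%, and AGAP001940, of 618 bp, lay wholly within the peak it shared with AGAP001939 and AGAP001941, with a score of 673.

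Both runs of 10 genes on 2L lay near each other. AGAP007390 to AGAP007399, at 2L:46277483-46322202, had only 5 peaks, which covered 61.9% of 44720 bp and marked all 10 promoters. Of these, 3 peaks each served a couple of genes, 1 peak of 11239 bp with the score 3100 lay on AGAP007396 alone, and 1 of 6037 bp with the same score served AGAP007397, AGAP007398 and AGAP007399. AGAP007374 to AGAP007382, at 2L:46153134-46209425, had 6 peaks over just 26.4% of 56292 bp. There AGAP007378 and AGAP013544 had no base of the body under H3K27ac, and counted through a peak of 1274 bp, scoring 178, that they shared with AGAP007377. The 10 genes of this run include nested ones. AGAP013544 lies wholly inside AGAP007378, and AGAP007376 wholly inside AGAP013291, each on the same strand as the gene around it.

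The other run of 10 on 2R, AGAP013346 to AGAP003771 at 2R:43102951-43137552, had 5 peaks over 59.1% of 34602 bp, and every peak touched 2 or 3 members. AGAP013346, AGAP003764, AGAP003765 and AGAP003768 lay wholly under H3K27ac. The last gene, AGAP003771, had no base covered and belonged to the run through the flank alone.

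**Figure D3:**
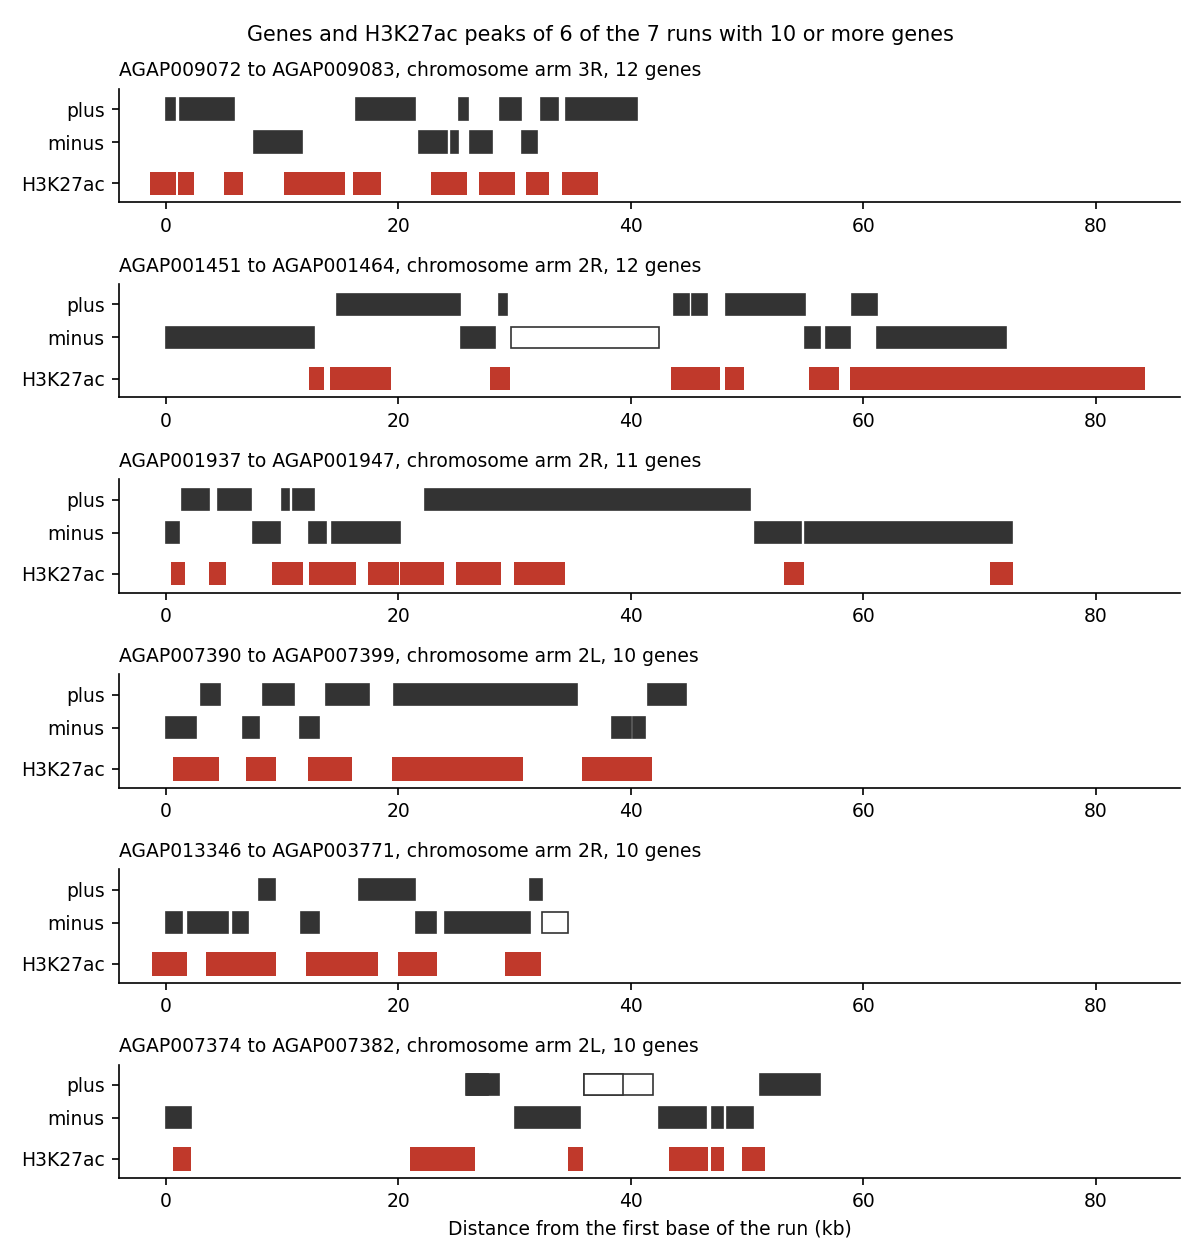
Genes on the plus and minus strands (boxes, open where no base lies under H3K27ac) and H3K27ac peaks (red) of 6 of the 7 runs with 10 or more genes, by distance from the first base of the run in kb. AGAP003532 to AGAP003540, the run of 10 with the smallest share of span covered, is not drawn. The peaks are separate in each run, and in AGAP001451 to AGAP001464 a peak of 25351 bp continues beyond the last gene.

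The largest share of span under H3K27ac, 90.5%, was in the shortest run, AGAP001815 to AGAP001819 at 2R:10865042-10870919, with 5 genes of 462 to 1032 bp on 5878 bp and 3 peaks. Each of its genes was covered over 70.7% to 100%. Of the 9 runs with 3100 as highest score, AGAP004735 to AGAP004739 at 2L:2966120-2977915 had the largest share of span covered, 77.9%. A peak of 17520 bp touched 4 of its 5 genes, of which AGAP004735, AGAP004736 and AGAP004737 were wholly covered and AGAP004738 over 48.5%, while AGAP004739 had its own peak with a score of 149.

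A few extremes were chosen after their values were seen. AGAP004682 to AGAP004686, at 2L:433503-747057, was both the longest run (313555 bp for 5 genes) and the least covered (3.99%). All 5 promoters were marked, but a gap of 244371 bp separated AGAP004685 from AGAP004686, and 6 H3K27me3 islands lay between its genes. The run with most peaks, 27 over 52.9% of 128188 bp, was AGAP008698 to AGAP008700 at 3R:15400782-15528969. Of those peaks, 22 touched none of its 5 genes, and 34 of the 42 unannotated intergenic loci (class "u" of the assembler) inside it touched H3K27ac.

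Of 68 genes on the study's list of mosquito genes of interest and controls, 63 had a model, and 5 of these were members, a share near the 7.62% of all annotated genes that lay in runs. Of the others, 14 were H3K27ac-only outside the runs, 23 had H3K27me3 only, 1 had both marks and 20 had neither. The control gene Act5C, a cytoplasmic actin, was in a run of 4, just under the minimum, and TER94, an AAA ATPase, stood alone.

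CACTUS and CASPAR, known as negative regulators of the Toll and IMD immune pathways, were members. CACTUS (AGAP007938, 3R:3214448-3217145), the inhibitor that holds back the NF-kappaB factor of the Toll pathway, was covered over 100% of its 2698 bp by a peak scoring 1343 and lay in the run of 6 from AGAP007936 to AGAP007941. That peak of 4466 bp also touched AGAP007937, covered over 80.9%, and AGAP007936, which it reached only in the flank. The other 3 genes of the run each had their own peak, with scores of 359, 597 and 505. CASPAR (AGAP006473, 2L:32629209-32636262), described in *Drosophila* as a suppressor of the IMD pathway, was covered over 42.2% of 7054 bp by its own peak, which scored 1443. It closed the run of 5 from AGAP006470 to AGAP006473. REL2 (AGAP006747), the Relish-like NF-kappaB factor of the IMD pathway, was H3K27ac-only and stood alone, covered over 16.7%, and REL1 (AGAP009515), the fourth gene of these pathways on the list, had neither mark.

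CTL3 (AGAP004810, 2L:3798556-3799428), a C-type lectin, was the last gene of the run of 6 from AGAP004805 to AGAP004810. It lay wholly under a peak of 9154 bp, scoring 704, which also covered AGAP004809 fully and AGAP004808 over 87.5%. The next gene, CTL1 (AGAP004811), started 999 bp beyond the run and carried neither mark. Of the 6 C-type lectins with a model, CTL3 was the only member, 1 had H3K27me3 and 4 had neither mark.

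The remaining listed members were the gene identifiers given for the ecdysone receptor EcR, the nuclear receptor for the moulting and reproductive hormone, AGAP012210 (3L:38857579-38862908) and AGAP012211 (3L:38895313-38912879). Both promoters were unmarked. AGAP012210 was covered over 50.5% by a peak scoring 143, and AGAP012211 over 8.95% by a peak scoring 225. Their run, AGAP012204 to AGAP028245, had 6 genes on 226802 bp and 19 peaks over 17.1%, and 14 of those 19 peaks touched none of its genes. It also held 5 H3K27me3 islands and overlapped AGAP012209, an annotated gene left out of the order because its only transcripts were of class "j", which touched both marks. Neither EcR gene was in a run with such gene models in the order, with H3K27ac peaks at or above the median score only, with at least 10% of the gene covered, or with H3K27ac required within 200 bp of a start.

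Of the marker genes checked, none of the 6 carboxypeptidase B genes of midgut blood digestion lay in a run, beside 7.62% of all genes, and so few genes do not set them apart. Of them 3 were H3K27ac-only, 2 had H3K27me3 and 1 had neither mark. Among genes of other cell types, 7 of 10 haemocyte markers (prophenoloxidases and TEP1) carried H3K27me3 and the others neither mark. Kdr, ACE1 and Dscam, the 3 genes taken here as neuronal, and the fat body gene Vg carried H3K27me3. The paper shows Dscam among its candidate genes, and whether it marks neurons alone was not tested. Of all annotated genes, 28.7% touched H3K27me3 and 39.3% touched neither mark. The prophenoloxidase genes PPO4, PPO6, PPO7, PPO8 and PPO9, all with H3K27me3, lay in a single stretch, 2L:7448120-7505945, so the haemocyte markers are not independent. The share of haemocytes or muscle in the dissected guts was not tested.

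H3K27me3 was absent from the genes of runs by the rule, but not always from the sequence between them. Islands lay inside 20 of the 149 runs (13.4%), with 82 islands over 3.69% of the summed span, against 45 of 793 runs of 2 to 4 (5.67%). Those 20 runs were long, with a median of 93826 bp (range 36495 to 313555), against 29543 bp (5878 to 148595) in the other 129. Of the 82 islands, 24 touched an annotated gene that had no class "=" transcript and therefore no place in the order. Genes of this kind overlapped 49 runs and numbered 70, of which 51 were H3K27ac-only and 10, in 9 runs, touched H3K27me3. Over all 1234 such genes, 49.3% were H3K27ac-only and 30.1% touched H3K27me3.

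Unannotated transcripts inside runs often carried H3K27ac too. Within the spans of 48 runs lay 305 class "u" loci, of which 116 (38.0%) touched H3K27ac and 32 touched H3K27me3. In runs of 2 to 4 the share with H3K27ac was 41.2%, and over all 13969 class "u" loci it was 13.8%, with 24.5% touching H3K27me3. A single run, AGAP008698 to AGAP008700, held 42 of the 305 loci and 34 of the 116 with H3K27ac. The spans were chosen through H3K27ac peaks on their genes, so the share is tied to the choice of members and was not tested.

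By the rule, a run ends at a gene that is not H3K27ac-only. At the 298 edges of runs, where a gene between 2 runs counts at both, the next gene had neither mark at 184 (61.7%, interval 56.1 to 67.1%), H3K27me3 only at 89 (29.9%, 25.0 to 35.3%) and both marks at 25 (8.39%, 5.75 to 12.1%). At runs of 2 to 4 the shares were 63.7%, 30.2% and 5.99%, and among all genes that were not H3K27ac-only they were 57.8%, 38.2% and 4.04%. An H3K27me3 gene stood at both sides of 23 runs and at neither side of 59. The distance from an edge outward to the nearest H3K27me3 base had a median of 15669 bp, against 14542 bp at runs of 2 to 4 and 14267 bp at single genes.

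Base by base, H3K27ac covered 43.7% of the last kb inside the edge, then 22.3%, 14.1%, 10.5% and 8.68% of the first 4 kb outside, against a mean of 7.57% over the 5 chromosome arms. Farther out it was higher again, at most 14.8% at 25 to 26 kb, a step picked after the values were seen. Runs of 2 to 4 had 11.7% there. H3K27me3 covered 1.64%, 9.09%, 13.7% and 18.0% of the same 4 kb and 20.2% of the fifth, against an arm mean of 23.0%. At runs of 2 to 4 the fifth kb outside had 10.4% under H3K27ac and 17.7% under H3K27me3. The 200 bp beyond each gene are free of H3K27me3 by the rule.

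**Figure D4:**
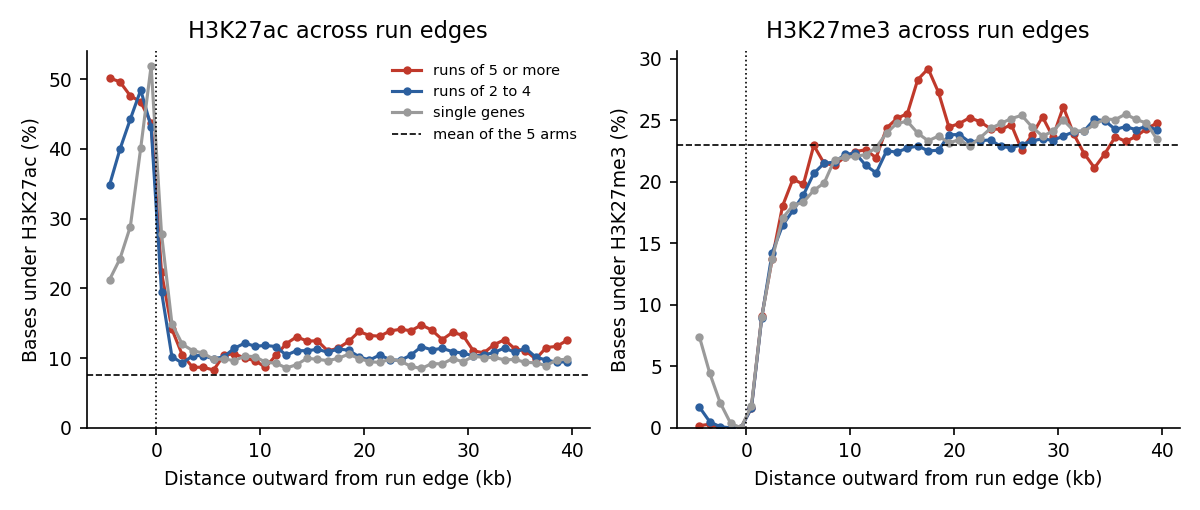
Percent of bases under H3K27ac (left) and H3K27me3 (right) in 1 kb steps from the edge of a run (0, dotted line), with positive distances outside, for runs of 5 or more, runs of 2 to 4 and single genes, and the mean of the 5 arms as a dashed line. H3K27ac drops and H3K27me3 climbs over the first 5 kb outside long and short runs, while farther out the curves part in places, with 29.2% under H3K27me3 at 17 to 18 kb from long runs against 22.5% from runs of 2 to 4. For short spans the bins inside can reach past the other end of the run.

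A few runs were parted by little. Of 144 pairs of neighbouring runs on the same chromosome, 3 had just 1 gene between them. AGAP001401, of 1526 bp and with neither mark, stood between runs of 5 and 7 genes on 2R that together with it spanned 27878 bp. AGAP002411, of 39309 bp and with both marks, parted runs of 6 and 5 genes on 2R, and AGAP009916, of 28911 bp and with H3K27me3 only, parted runs of 8 and 5 genes on 3R.

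Runs were spread unevenly over the chromosomes. On 2R 53 runs held 333 of 3424 genes (9.73%, interval 8.78 to 10.8%), on 2L 45 runs held 270 of 2816 (9.59%, 8.56 to 10.7%) and on 3R 31 runs held 188 of 2338 (8.04%, 7.01 to 9.21%). On the X chromosome 8 runs held 49 of 970 genes (5.05%, 3.84 to 6.62%), and on 3L 12 runs held 64 of 1784 (3.59%, 2.82 to 4.56%). By the rule members come in blocks of 5 or more genes, so these intervals are too narrow, and the differences between chromosomes were not tested. The unplaced sequence UNKN had no run among 536 genes, of which 5.22% were H3K27ac-only. Over the 5 arms the share of genes that were H3K27ac-only was 36.8% on 2R, 32.7% on 2L, 32.5% on 3R, 32.9% on X and 29.0% on 3L. Of these H3K27ac-only genes, 26.4% on 2R, 29.3% on 2L and 24.8% on 3R were in runs, against 15.4% on X and 12.4% on 3L.

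The genes of each arm were split, in order of position, into 4 parts of equal number. The first part of 2R was richest, with 14.6% of genes in runs, followed by the last and the first parts of 2L with 12.5% and 12.2%. The third part of 3L had no gene in a run although 27.8% of its genes were H3K27ac-only, and the first part of X had none with 28.8%. There, 49.4% of genes touched H3K27me3 and the median gene was 3343 bp long, whereas in the third part of 3L 31.6% touched H3K27me3 and the median gene was 1938 bp.

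**Figure D5:**
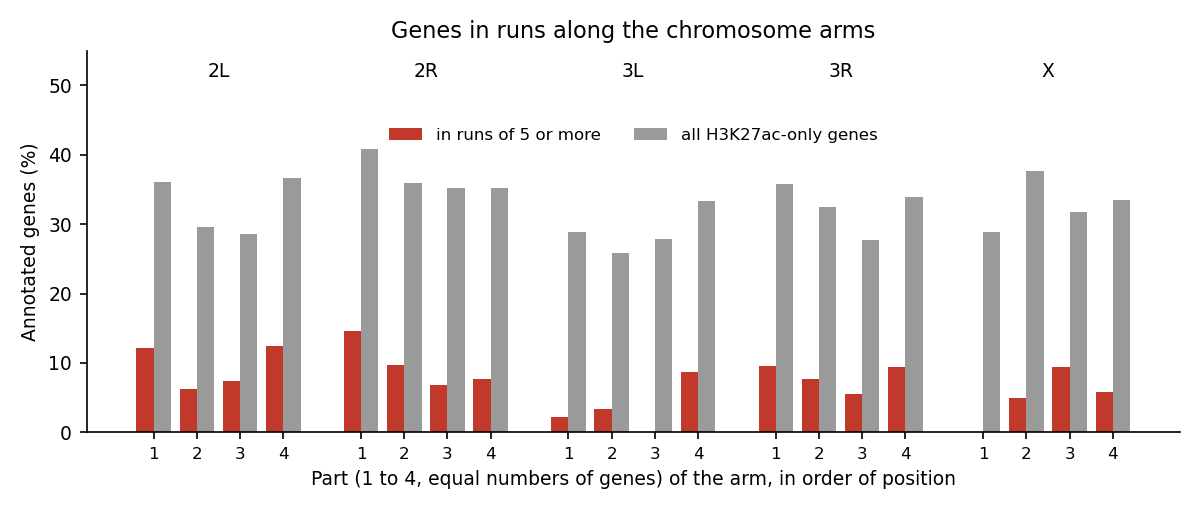
Percent of annotated genes in runs of 5 or more (red) and of all H3K27ac-only genes (grey) in each of 4 parts of an arm that hold equal numbers of genes, in order of position. Genes in runs range from 0% in the third part of 3L and the first of X to 14.6% in the first part of 2R. H3K27ac-only genes range from 25.8% in the second part of 3L to 40.9% in the first part of 2R.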

How the data were processed

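The submitters' processing notes name Bowtie 1.0.0, MACS 1.4, SICER, TopHat2 2.0.10 and Cufflinks 2.1.1, and the authors mapped reads to AgamP4. The deposited H3K27ac list gives a MACS score for each peak (50.02 to 3233 here) and the deposited H3K27me3 list a SICER score for each island (39 to 23492), so scores were compared only within a list. All H3K27me3 islands started on multiples of 200 bp, so their edges are coarse, and islands lay at least 801 bp apart. The transcript set deposited by the authors is in other units, namely exon positions with a class code. Depth was not used here, because reads, input and expression values were not analysed.

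Genes were the joined spans of class "=" transcripts (same intron chain as the annotation), 37 mitochondrial genes were left out, and 1234 annotated genes with class "j" or "o" transcripts only were not placed in the order. Overlap needed 1 bp. Spans, peaks, gaps and coverage were computed with Python 3.11.15, numpy 2.4.6, pandas 2.3.3 and scipy 1.17.1 and drawn with matplotlib 3.10.9. The members and lists were chosen with earlier results of these data known. Runs described are 6 of the 7 with 10 or more genes (ties by the larger share of span), that with the largest share of span covered, that with the highest score (ties likewise) and those with genes of the study's list. Alternatives were other flanks, score limits, overlap rules, gene models and run lengths. The RefSeq table used here shares no identifier with the files, so genes outside the study's list have no name and no sequence is shown.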

Additional observations from a re-analysis of the deposited data

How the results depend on the processing

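Among the alternatives, the limit on H3K27ac peak scores moved the count of genes in runs most. The main values were 149 runs, 904 genes, 32.4% of the span under H3K27ac and 47.6% of pairs with a common peak. A flank of 1000 bp gave 230 runs, 1514 genes, 30.4% and 65.0%, and no flank gave 115 runs, 692 genes, 33.2% and 39.2%. Keeping only H3K27ac peaks at or above the median score left 45 runs, 260 genes, 36.5% and 63.3%. Asking for 10% of the gene under H3K27ac left 94 runs, 558 genes and 37.1% of the span, and asking for H3K27ac within 200 bp of a start left 95 runs, 565 genes and 33.6%. A minimum of 4 genes gave 277 runs, 1416 genes and 32.9%, and of 6 genes 76 runs, 539 genes and 31.6%. The share of span was 31.4% with H3K27me3 islands at or above the median score, 28.6% with H3K27me3 genes not left out, 34.3% with class "j" and "o" models added, and 31.2% with nested genes left out, and was the same without UNKN. Leaving out the 20 runs with H3K27me3 between genes, chosen after seeing the data, gave 40.3%. With class "j" and "o" models, 864 of the 904 members (95.6%) stayed in runs. CACTUS and CTL3 were in a run under every alternative. CASPAR was in none with the stricter H3K27ac peaks, with marked starts only, with nested genes left out or with a minimum of 6 genes. The EcR genes were in none with the stricter H3K27ac peaks, with 10% of the gene covered, with marked starts only, with class "j" and "o" models or without the runs that held H3K27me3. With 1 library per mark no replicate could be left out. No paired analysis was possible because no group has a second sample. Differences between mosquitoes were not measured, and a gene without a peak can be one whose peak was not detectable at the depth of the library.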
